A study of Homo sapiens with 6 samples.

Results

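The centrosome genes described here were 42 genes, chosen by name: every gene whose symbol is CEP (centrosomal protein) followed by a number, pseudogenes left out, and PCNT, CNTRL, NIN, PCM1, CDK5RAP2, AKAP9 and CLIP1, whose proteins sit at the centrosome or on microtubules. They were represented by 135 of the 54613 non-control probe sets on the Affymetrix U133 Plus 2.0 array and by 42 of the 19775 genes that had a probe set of their own. Of the 42 genes, 5 had 1 probe set, 11 had 2, 12 had 3 and the other 14 had 4 to 6. The samples were cultures of K562, an established human chronic myeloid leukemia line, in which the ETS transcription factor ERG (ERG3 in the labels) is under a doxycycline-responsive promoter (pTRE). ERG-induced cultures of clones CL4, CL9 and CL46 received 1 µg/ml doxycycline daily for 8 days, and non-induced cultures of the same 3 clones received none, which gave 6 arrays, 3 in each group. All 6 cultures carried the inducible construct, each clone is a separate stable transfectant, and no clone had a replicate array within a condition. Every induced culture and no other received the drug, so that effects of ERG and of doxycycline cannot be told apart, and arrays of cells without the ERG construct were not analysed here. ERG itself, the gene to be induced, had log2 ratios to the median of the 6 arrays of 0.15, -0.93 and -0.71 on the arrays labelled ERG-induced (CL4, CL9, CL46), against 1.5, -0.13 and -0.57 on those labelled non-induced, a difference of -0.76 (SE 0.63, adjusted p = 0.671, limma over 4 probe sets). It was thus not higher on the arrays labelled ERG-induced, and as the place of its probe sets relative to the introduced sequence is not known here, ERG does not check the labels. Of 10 measured megakaryocyte markers, SELP, GP1BA and ITGB3 were called over-expressed under these labels, at 3.76, 2.38 and 1.23 (limma, adjusted p = 0.192, 0.2 and 0.321). Each of these was higher with doxycycline in all 3 clones. The other markers were not called: TUBB1 and GP6 differed by -0.31 and -0.11, and the rest lay above 0. The study reported SELP, GP1BA and ITGB3 as over-expressed from these same arrays, so their array values do not check the labels either. For SELP the study also reported upregulation by RT PCR, plotted for clone CL9, which is a measurement apart from the arrays. Groups are called by their labels throughout.

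The centrosome is the main microtubule-organizing center of animal cells. It consists of a pair of centrioles, which are built on a cartwheel and copied in each cell cycle, within the pericentriolar material, a protein matrix that holds the gamma-tubulin complexes from which microtubules grow. The older centriole carries appendages that anchor microtubules and, in resting cells, dock the centriole at the membrane as the base of a cilium, while granules called centriolar satellites carry components to and fro. CEP proteins are found in all of these structures, and they share a location rather than a common fold.

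The promoters of the genes that the results turn on are shown first, because ERG is a DNA-binding factor. RefSeq gave a start site for 37 of the 42 genes and for 15 of the 17 that were called under-expressed below (CEP78 and PCM1 were not matched). The 250 bases before the start are printed 5′ to 3′ on the strand of the gene, in GRCh38.p14. Shown are CNTRL, CEP192 and CEP55, which were called under-expressed in every alternative fit at the same thresholds, and CEP95 and CEP44, which together with CNTRL were the called genes that held CCGGAAG, the core of many ETS sites. Capitals mark matches on either strand to CCGGAAG, to AGGAAG (letters often found in regions bound by ERG in other cells), to TTTGAA (the cell cycle homology region) or to CCAAT (the NF-Y box), and a match on the opposite strand reads as the reverse complement, as in TTCAAA or CTTCCT.
CNTRL, chr9:121074705-121074954 (+ strand): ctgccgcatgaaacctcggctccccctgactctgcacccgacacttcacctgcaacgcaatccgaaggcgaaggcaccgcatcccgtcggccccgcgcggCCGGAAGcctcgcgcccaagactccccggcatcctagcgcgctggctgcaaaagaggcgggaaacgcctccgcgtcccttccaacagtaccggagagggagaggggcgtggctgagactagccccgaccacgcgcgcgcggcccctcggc
CEP192, chr18:12991112-12991361 (+ strand): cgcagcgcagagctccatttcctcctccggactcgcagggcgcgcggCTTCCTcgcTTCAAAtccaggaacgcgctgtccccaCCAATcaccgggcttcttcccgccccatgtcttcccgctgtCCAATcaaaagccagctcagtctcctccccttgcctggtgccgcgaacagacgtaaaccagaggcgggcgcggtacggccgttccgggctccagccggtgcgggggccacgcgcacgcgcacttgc
CEP55, chr10:93496362-93496611 (+ strand): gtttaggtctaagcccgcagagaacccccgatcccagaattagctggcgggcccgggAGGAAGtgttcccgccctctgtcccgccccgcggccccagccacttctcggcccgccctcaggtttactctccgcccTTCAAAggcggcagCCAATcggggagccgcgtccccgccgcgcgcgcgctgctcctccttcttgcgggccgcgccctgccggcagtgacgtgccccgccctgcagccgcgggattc
CEP95, chr17:64506727-64506976 (+ strand): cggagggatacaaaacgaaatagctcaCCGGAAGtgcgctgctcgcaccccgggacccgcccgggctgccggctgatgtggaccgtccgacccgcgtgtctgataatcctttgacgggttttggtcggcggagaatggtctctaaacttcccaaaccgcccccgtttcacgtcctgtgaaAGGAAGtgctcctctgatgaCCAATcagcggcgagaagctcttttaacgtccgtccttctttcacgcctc
CEP44, chr4:174283661-174283910 (+ strand): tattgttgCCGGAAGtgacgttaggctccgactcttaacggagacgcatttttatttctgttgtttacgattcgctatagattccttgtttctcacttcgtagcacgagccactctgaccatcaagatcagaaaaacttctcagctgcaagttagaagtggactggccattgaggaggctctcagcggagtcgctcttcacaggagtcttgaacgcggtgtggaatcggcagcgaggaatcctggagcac
CNTRL and CEP120 each had a pair of start sites in the table, and a gene was counted where either window matched; the CNTRL window shown is the one with the ETS letters. On 1 strand CCGGAAG does not contain AGGAAG, although the end of the first can overlap the start of the second. CCGGAAG lay in 3 of the 15 called genes and in 1 of the 22 genes not called that had a window, while 8.52% of all 35116 windows held it. AGGAAG lay in 8 of the 15 and 5 of the 22, and in 28.7% of all windows. The letters TTTGAA lay in 5 of the 15 and 5 of the 22, and in 13.3% of all windows, and CCAAT lay in 7 of the 15 and 12 of the 22, and in 32.0% of all windows. These counts describe letters in a window, and binding was not measured.

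When ERG-induced cells were compared with non-induced cells, 17 of the 42 centrosome genes were called under-expressed and 0 were called over-expressed. A call meant a fold change of 2 or more with an unadjusted p under 0.05 (limma, 3 arrays against 3), the thresholds used in the study. The 17 genes were 40.5% of the 42, and 6.32% of all 19775 genes were called under-expressed by the same rule. For over-expression the share of all genes was 3.12%. The largest differences were in CEP290 (a gatekeeper of the cilium), CEP135 (part of the cartwheel), CNTRL (centriolin, at the appendages of the older centriole) and PCM1 (the scaffold of centriolar satellites), which were 5.46-, 5.37-, 3.97- and 3.91-fold lower in ERG-induced cells. The size of the CEP135 difference rested on CL9: without that clone it was -1.58 in place of -2.43 on the log2 scale, and still called. Without CL4 or without CL46 CEP135 was not called, at -2.94 and -2.75. After Benjamini-Hochberg adjustment over all genes, 0 of the 42 and 0 of all genes passed 0.05. The lowest adjusted p was 0.192 among the 42 and 0.101 among all genes, and the 17 calls lay between 0.192 and 0.387, while unadjusted p was under 0.05 for 17 of the 42 and for 2544 of all genes.

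The deposited values are ratios of each probe set to its own median over the 6 arrays, so they show how a probe set varied between arrays and neither its brightness nor whether a transcript was present. Values below are log2 ratios, averaged over the probe sets of a gene, with 0 at the median of the probe set, and they are given in the order CL4, CL9 and CL46. Differences are ERG-induced minus non-induced, and SE is the moderated standard error of limma. The median difference of the 42 genes was -0.68, against -0.03 for all genes. In 38 of the 42 genes (90.5%) the difference was below 0, against 51.8% of all genes. In 22 of the 42 (52.4%) all 3 ERG-induced arrays lay below all 3 non-induced arrays, against 13.6% of all genes, and in 0 of the 42 they all lay above, against 7.98% of all genes.

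**Figure D1:**
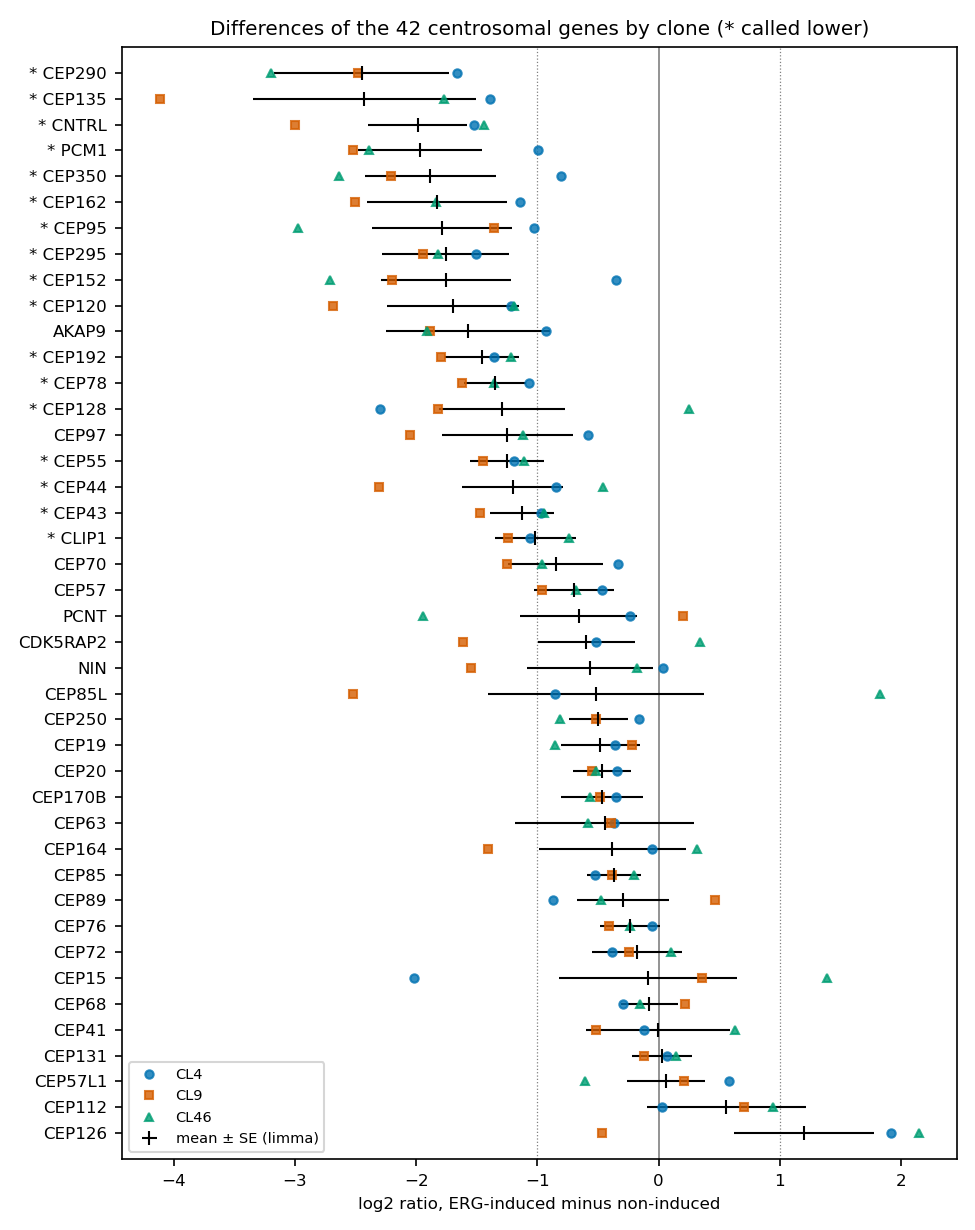
Log2 difference between ERG-induced and non-induced cultures (x axis) of the 42 centrosome genes (y axis, ordered by mean difference), with 1 point for each clone, a black tick for the mean and a bar for ± 1 SE from limma; dotted lines mark a fold of 2 and an asterisk marks the 17 genes called lower. Means ran from -2.45 (CEP290) to 1.20 (CEP126), and in 27 of the 42 genes all 3 clones lay below 0.

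The genes of centriole duplication and length gave the most calls, 6 of 11, with a median difference of -1.25 over the 11. CEP135, which stabilizes the cartwheel, had -0.54, -3.88 and -0.90 in the ERG-induced arrays, against 0.85, 0.24 and 0.87 in the non-induced arrays. The groups did not overlap in the gene mean, but the ERG-induced array of CL9 lay far below those of the other clones. The difference of -2.43 had an SE of 0.92 (adjusted p = 0.358). Of the 2 CEP135 probe sets 1 was called, at -2.72. The other stood at -2.13 and was not called, and its groups overlapped. CEP152, a scaffold that brings the duplication kinase PLK4 to the centriole, had -0.34, -2.01 and -1.91 with ERG, against 0.00, 0.19 and 0.80 without. Its difference was -1.75 (SE 0.53, adjusted p = 0.296), and -2.46 without CL4, where the gene mean differed by only -0.35. In CL4 1 probe set stood at 3.52, while the 4 others, all called, stood at -1.45, -1.93, -1.29 and -0.60.

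CEP295, needed for a new centriole to become a centrosome, had -0.42, -1.74 and -0.39 in ERG-induced cells, against 1.09, 0.20 and 1.43 in non-induced cells. The 3 clones differed by -1.51, -1.94 and -1.82, a narrow range for this group, with a mean difference of -1.76 (SE 0.52, adjusted p = 0.291). Of the 4 CEP295 probe sets 1 was called, at -2.05, and the rest lay between -2.50 and -0.75. The narrow range by clone is that of gene means, and in CL4 the differences of the probe sets ran from -3.47 to 0.14. CEP120, which promotes elongation of the centriole, had -0.61, -2.36 and -0.54, against 0.61, 0.33 and 0.66 in non-induced cells. Again CL9 was the lowest of the ERG-induced arrays while the 3 non-induced arrays lay close together (difference -1.70, SE 0.54, adjusted p = 0.309).

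CEP78, a centriole wall protein, had the lowest adjusted p of the 42 genes (0.192). Its ratios were -0.54, -1.06 and -0.70 in ERG-induced cells and 0.53, 0.56 and 0.65 in non-induced cells, so that means of -0.77 ± 0.27 and 0.58 ± 0.07 (SD, n = 3 each) were separated by -1.35 (SE 0.25), or 2.55-fold. CEP44, which binds the inner wall of the centriole, had -0.30, -1.16 and 0.16 with ERG, against 0.55, 1.15 and 0.62 without. The CEP44 groups were separate, although the ERG-induced array of CL46 was above 0 (difference -1.20, SE 0.42, adjusted p = 0.331). The call on CEP44 ended when the clone was fitted as a block (adjusted p = 0.410) and without its cross-hybridizing (_x_at) probe sets, where the difference was -0.65. CEP97, a cap protein that limits the growth of the centriole, was not called, with -0.48, -2.07 and -0.38 in ERG-induced cells, against 0.10, -0.02 and 0.74 in non-induced cells (difference -1.25, SE 0.54, adjusted p = 0.414). The other 4 genes of the group (CEP57, CEP63, CEP76 and CEP57L1) had differences of -0.70 to 0.06.

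Among the 9 genes of appendages and microtubule anchoring, 4 were called under-expressed and the median difference was -0.56. CNTRL had -0.78, -2.02 and -0.84 in ERG-induced cells, against 0.74, 0.98 and 0.59 in non-induced cells. All clones fell, CL9 the furthest, and the means were -1.22 ± 0.70 and 0.77 ± 0.19 (SD, n = 3 each), a difference of -1.99 (SE 0.41, adjusted p = 0.196). CEP350, a large protein that anchors microtubules together with CEP43, had -0.37, -1.77 and -2.38 with ERG, against 0.44, 0.43 and 0.26 without. Here the non-induced arrays were nearly level and CL4 was the highest of the ERG-induced arrays (difference -1.88, SE 0.54, adjusted p = 0.278).

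CEP43 (also known as FOP, a fusion partner of FGFR1 in myeloid neoplasms) had -0.70, -0.80 and -0.88 in ERG-induced cells, the narrowest spread of the called genes in that group of arrays, against 0.28, 0.68 and 0.06 in non-induced cells. Its difference was -1.13 (SE 0.27, adjusted p = 0.228). The narrow spread is that of gene means, and on the ERG-induced array of CL9 the CEP43 probe sets ran from -3.40 to 2.64. CEP128, a protein of the subdistal appendages, was called with -1.45, -1.50 and -0.15, against 0.85, 0.32 and -0.40 in non-induced cells. It was the exception among the 17, as its groups overlapped and in CL46 the ERG-induced gene mean was the higher by 0.25. In CL46 1 of its 5 probe sets stood at 4.22, while the others stood at 0.54, -0.56, -0.64 and -2.32. Only the last of these probe sets was called, at -1.72 over the clones. The call on the gene (difference -1.29, SE 0.52, adjusted p = 0.387) ended when the clone entered as a block (adjusted p = 0.459), while the difference was -2.06 without CL46. Of the 5 genes of the group without a call, CEP164 and CEP89 of the distal appendages differed by -0.38 and -0.29, CEP19 by -0.48 and CEP170B by -0.47.

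NIN (ninein), which anchors the minus ends of microtubules, was the gene whose probe sets disagreed most. Its gene mean was -0.56 (SE 0.52, adjusted p = 0.707), from 0.16, -1.57 and 0.08 with ERG and 0.12, -0.02 and 0.26 without, so that the groups overlapped and CL9 showed the largest difference. Of its 6 probe sets, 2 were called under-expressed, at -2.29 and -1.23, and 1 was called over-expressed, at 2.85, the only such call among the 135 probe sets. The pattern by clone is that of the gene mean. By clone the over-expressed probe set stood at 2.68, 0.66 and 5.21, and the one at -2.29 stood at -1.92, -2.48 and -2.46. Without the probe sets whose median over the arrays was below 1, among them the over-expressed one, NIN was called under-expressed at -1.25 (adjusted p = 0.341). Which NIN transcripts these probe sets match was not analysed here.

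**Figure D2:**
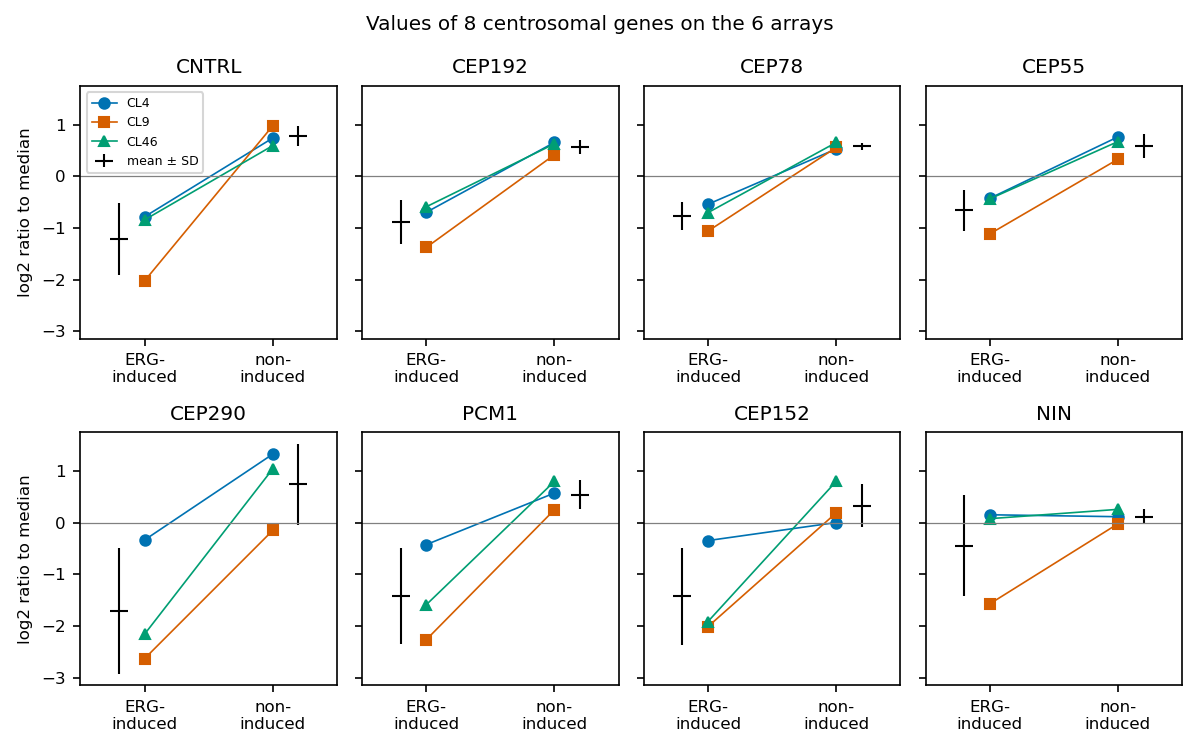
Log2 ratio to the median of the probe set (y axis) of 8 centrosome genes in ERG-induced (left) and non-induced (right) arrays (x axis), with a line joining the arrays of a clone and black ticks for the mean ± SD of each group (n = 3). CNTRL, CEP192, CEP78 and CEP55 fell in all 3 clones, by 1.07 or more on the log2 scale. CEP290, PCM1 and CEP152 varied more between clones. The gene mean of NIN differed mainly in CL9, and its probe sets disagreed.

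Of the 7 genes of satellites and the base of the cilium, 3 were called under-expressed, and the median of the 7 was -0.47. CEP290 had -0.33, -2.63 and -2.16 in ERG-induced cells, against 1.33, -0.15 and 1.04 in non-induced cells. The differences by clone were -1.66, -2.48 and -3.20 (mean -2.45, SE 0.72, adjusted p = 0.287), but the ERG-induced array of CL4 stood close below the non-induced array of CL9. PCM1 had -0.42, -2.26 and -1.59 with ERG, against 0.58, 0.25 and 0.80 without (difference -1.97, SE 0.51, adjusted p = 0.250; -3.09 without its _x_at probe sets).

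CEP162, which helps start the assembly of the transition zone of the cilium, had -0.21, -2.32 and -1.15 in ERG-induced cells, against 0.93, 0.18 and 0.68 in non-induced cells. Its arrays were separate in the same way, with CL9 lowest in both conditions (difference -1.83, SE 0.58, adjusted p = 0.306). CEP20, CEP41 and CEP131 were not called, with differences between -0.47 and 0.03. CEP126, a microtubule-binding protein linked to the cilium, had the highest difference of the 42 genes, 1.20 (SE 0.58, adjusted p = 0.452). It was not called: its ratios of 0.74, -0.73 and 0.23 in ERG-induced cells overlapped those of -1.18, -0.26 and -1.92 in non-induced cells, and the differences by clone were 1.92, -0.47 and 2.15. Without CL9 it was called over-expressed at 2.03 (adjusted p = 0.445).

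In the pericentriolar material 1 of 6 genes was called under-expressed, and the median was -0.63. That gene was CEP192, which recruits PLK4 and the kinases that enlarge the matrix before mitosis. It had -0.70, -1.38 and -0.59 in ERG-induced cells, against 0.66, 0.42 and 0.63 in non-induced cells, with means of -0.89 ± 0.43 and 0.57 ± 0.13 (SD, n = 3 each) and a difference of -1.46 (SE 0.30, adjusted p = 0.200). CEP192 was measured by 1 probe set, and the array also holds probe sets for its pseudogene CEP192P1, which were left out.

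The large scaffolds of the matrix gave no call. PCNT (pericentrin) had -0.03, -0.24 and -1.44 with ERG, against 0.21, -0.45 and 0.50 without, so that CL46 showed the largest difference (difference -0.66, SE 0.48, adjusted p = 0.629). Of its 2 probe sets, 1 stood at 0.28, 0.82 and -3.48 by clone. The other stood at -0.76, -0.41 and -0.40, and its groups did not overlap. CDK5RAP2, which activates gamma-tubulin complexes, had -0.29, -1.06 and 0.07, against 0.22, 0.55 and -0.27 in non-induced cells, with CL9 at -1.61 and CL46 at 0.34 (difference -0.60, SE 0.40, adjusted p = 0.60). Of its 3 probe sets, 1 stood at -0.68, -3.48 and 1.655 by clone. The others stood at -0.55, -0.57 and -0.48 and at -0.32, -0.78 and -0.16, without overlap of the groups and without a call. AKAP9, which holds protein kinase A and microtubule nucleation factors at the centrosome and the Golgi, had -0.41, -2.01 and -0.22, against 0.52, -0.12 and 1.69 in non-induced cells. Its groups were separate and its difference was -1.57, but the SE of 0.68 left it without a call (adjusted p = 0.414), while a fit with clone blocks called it (adjusted p = 0.350). Of its 3 probe sets, 2 were called under-expressed at -2.78 and -2.75, and the other stood at 0.81. CEP85 and CEP72 differed by -0.37 and -0.18.

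CEP55 and CLIP1, which act away from the centriole, were both called under-expressed. CEP55, which brings the membrane-cutting ESCRT proteins to the bridge between daughter cells, had -0.43, -1.12 and -0.44 in ERG-induced cells and 0.76, 0.33 and 0.67 in non-induced cells. Its means of -0.66 ± 0.39 and 0.59 ± 0.23 (SD, n = 3 each) differed by -1.25 (SE 0.31, adjusted p = 0.236), with 1 probe set and similar differences of -1.19, -1.45 and -1.11 in the 3 clones. CLIP1, a protein of growing microtubule ends, had -0.49, -1.15 and -0.24 with ERG, against 0.57, 0.09 and 0.50 without. At -1.02 (SE 0.33, adjusted p = 0.317) it lay just past the fold of 2, and it was at 2.02-fold.

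CEP250 and CEP68, which form the linker between the centrioles, differed by -0.50 and -0.08 and gave no call. Of the 5 genes whose role is not described here, 1 was called. CEP95 had -1.24, -0.21 and -1.81 in ERG-induced cells, against -0.21, 1.14 and 1.16 in non-induced cells, and the ERG-induced array of CL9 was level with the non-induced array of CL4 (difference -1.79, SE 0.58, adjusted p = 0.314). Without CL46 it was -1.19 and not called. Of the 3 CEP95 probe sets 1 was called, at -3.10, and the rest stood at -1.34 and -0.91. The other 4 genes, CEP70, CEP85L, CEP15 and CEP112, had differences of -0.85 to 0.56. CEP85L (0.89) and CEP63 (0.74) had the largest SE among the 25 genes without a call, in which SE ran from 0.22 to 0.89, and 15 of the 25 had a difference within 0.5 of 0.

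The clones did not contribute equally. Over the 42 genes CL9 had the lowest median difference, -1.38, with -0.71 in CL46 and -0.55 in CL4, against -0.06, -0.04 and -0.04 for all genes. A fold of 2 or more toward lower values was seen in 13 of the 42 genes in CL4 (31.0%, against 17.0% of all genes), in 24 in CL9 (57.1%, against 20.5%) and in 16 in CL46 (38.1%, against 18.2%). Toward higher values it was seen in 1, 0 and 3 genes, while 14.6%, 16.8% and 14.6% of all genes lay that far up. Of the 17 called genes, 16 lay below 0 in all 3 clones, and the lowest of the 3 differences was in CL9 for 12, in CL46 for 4 and in CL4 for 1.

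Leaving out a clone reduced the count of 17 under-expressed genes to 11 without CL4, 11 without CL9 and 7 without CL46. Among all genes, the shares called under-expressed in these fits were 6.6%, 5.47% and 5.08%, against 6.32% with every clone. The calls lost were CEP135, CEP295, CEP120, CEP128, CEP44 and CLIP1 without CL4, CEP350, CEP152, CEP128, CEP44, CEP43 and CLIP1 without CL9, and CEP290, CEP135, PCM1, CEP350, CEP162, CEP95, CEP295, CEP152, CEP120 and CLIP1 without CL46. The 4 genes called under-expressed whichever clone was left out were CNTRL, CEP192, CEP78 and CEP55, and they were also called in every other alternative fit at these thresholds. CEP192 and CEP55 have 1 probe set each, so fits that changed the choice or summary of probe sets left their differences unchanged. With the clone as a block the count was again 17, but CEP128 and CEP44 were replaced by AKAP9 and CEP97. Centering each array on its median gave 15, without CEP128 and CLIP1, and put the median of all genes at 0.08 in place of -0.03, with 999 lower and 749 higher calls over all genes in place of 1250 and 617. Over the 42 genes the split was 15 lower and 0 higher after centering.

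At the level of probe sets, 40 of the 135 were called under-expressed (29.6%, against 8.16% of all 54613 probe sets) and 1 was called over-expressed (0.741%, against 2.82%). All 3 ERG-induced arrays lay below all non-induced arrays in 61 probe sets (45.2%, against 15.1% of all) and above them in 1 (7.14% of all). Of the 135, 45 had an unadjusted p under 0.05 (limma), as had 7180 of all 54613 probe sets. An adjusted p under 0.05 was found in 0 of the 135 (lowest 0.162) and in 0 of all probe sets (lowest 0.086). Without CL46 the count of under-expressed probe sets was 15. Probe sets of the same gene share their transcript and are no replicates of a condition, but they show how far a gene mean rests on 1 of them. Of the 37 genes with 2 or more probe sets, 24 had all of them below 0, 12 had some on either side and 1, CEP126, had all above 0. Of the 17 called genes, 10 had 2 or more probe sets called under-expressed and 4 had every probe set called.

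CNTRL and CEP120 were covered by 2 probe sets each, all called. PCM1 had 4 of 6 called, at -4.14, -2.08, -2.03 and -1.89, and the other pair stood at -1.62 and -0.04. CEP152 had 4 of 5 called, between -3.27 and -1.35, with the other at 0.65. CEP350 had 3 of 4 called, and CEP290 had 2 of 3, at -3.79 and -2.05. CEP43 had 2 of 5 called, at -3.01 and -1.38, a pair stood lower by just under a fold of 2, and the last stood at 0.54. Of the 14 _x_at probe sets, which may hybridize to related sequences, 7 were called under-expressed, against 12 of 40 of the _s_at type and 21 of 75 of the plain _at type.

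**Figure D3:**
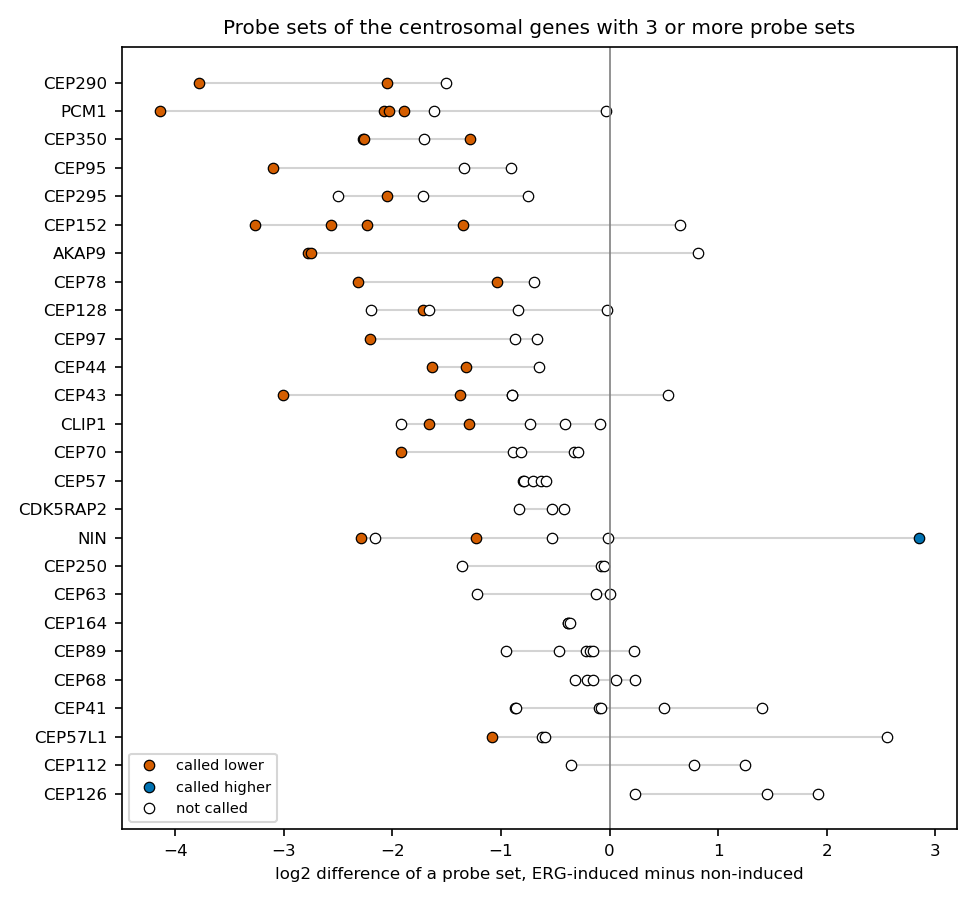
Log2 difference between ERG-induced and non-induced arrays (x axis) of each probe set of the centrosome genes with 3 or more probe sets (y axis), filled orange where called lower, blue where called higher and open where not called; a gray line spans the probe sets of a gene. The NIN probe set at 2.85 is the 1 called higher, beside probe sets of the same gene at -2.29 and -1.23 that were called lower.

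Other centrosome genes without a CEP name were counted in 4 lists, of which 16 of 70 measured genes (22.9%) were called under-expressed and 1 over-expressed, with a median difference of -0.51; without CL46 the count was 9. Among the 17 genes of centriole assembly, 5 were called under-expressed. PLK4, the kinase that starts duplication, differed by -1.92 (SE 0.44, adjusted p = 0.221), SASS6, the main protein of the cartwheel, by -1.25 (SE 0.25, adjusted p = 0.192), and STIL, which links them, by -1.18 (SE 0.28, adjusted p = 0.227). These are partners of CEP152, CEP192 and CEP135, which were called as well. Among 20 genes of satellites, appendages and the cilium base 7 were called, and those with the smallest p were IFT88 (-1.42), KIF3A (-1.52) and HOOK3 (-1.18). Of the 16 centrosome kinases and linker genes 3 were called under-expressed, CKAP5 (-1.14), NEK2 (-1.10) and ASPM (-1.39), and CROCC (rootletin) was called over-expressed at 1.09. Of 17 genes of the gamma-tubulin complexes and augmin, only HAUS6 (-1.41) was called, which was 5.88% of the list and near the 6.32% of all genes.

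Genes of cell division outside the centrosome also gave larger shares of calls than all genes. Of 26 kinetochore and spindle checkpoint genes 7 were called under-expressed (26.9%, median difference -0.55), and of 38 kinesin motors 7 (18.4%, median -0.22), with 0 over-expressed in both lists (the kinesins KIF11 and KIF3A also stand in other lists here). Of 22 proliferation and mitosis markers 5 were called under-expressed (22.7%, median -0.34), and the mean log2 ratio of that list ran from -0.83 to -0.20 on the ERG-induced arrays and from 0.06 to 0.28 on the non-induced arrays. Whether the centrosome genes differ from these lists was not tested, and the part of a change in dividing cells in the differences was not tested. In bulk RNA, fewer cells with a transcript and less of it per cell cannot be told apart.

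**Figure D4:**
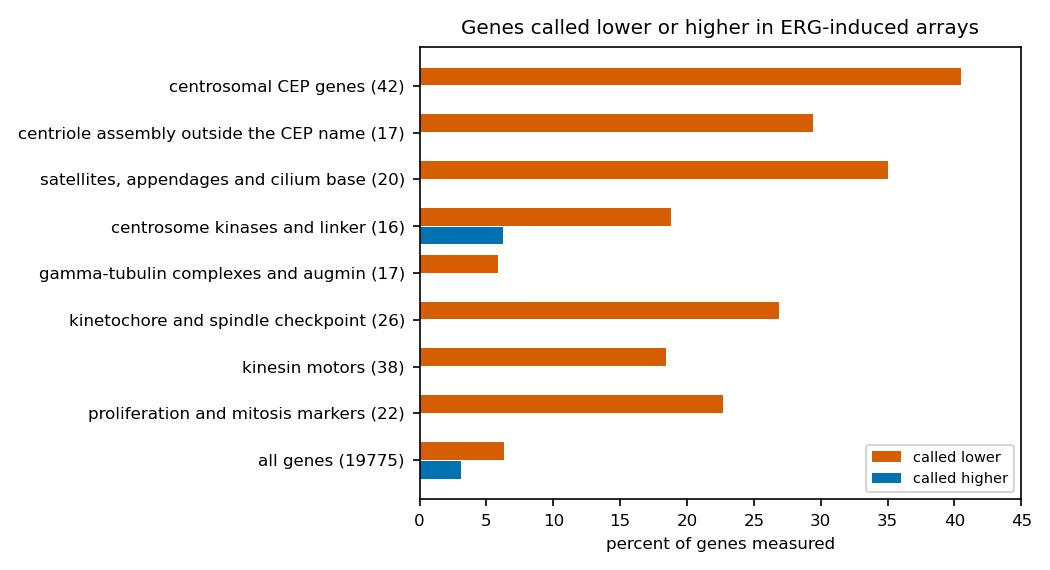
Percent of the measured genes of each list (number in brackets, y axis) called lower (orange) or called higher (blue) in ERG-induced arrays at a fold of 2 or more and unadjusted p under 0.05. The centrosome genes stand at 40.5% lower and all genes at 6.32% lower and 3.12% higher; the gamma-tubulin list stands at 5.88%.

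Several array-wide values moved with the condition. Ribosomal RNA control probe sets were higher in ERG-induced arrays by 1.21 (CL4), 0.59 (CL9) and 0.82 (CL46), and the 3′ minus 5′ difference of ACTB changed by -0.15, 0.59 and 0.24, that of GAPDH by -0.01 to 0.06. Their part in the differences was not tested. The median ratio of an array was 0.898 to 0.998 in ERG-induced and 0.990 to 1.07 in non-induced arrays. Of 10 megakaryocyte markers 3 were called over-expressed (median 1.13; mean log2 ratio -0.34 to 1.12 on ERG-induced and -1.08 to -0.65 on non-induced arrays), of 8 measured erythroid markers 1 was called under-expressed, and of 10 fibroblast and stroma markers 2 were called over-expressed and 1 under-expressed. Whether any marker was present could not be read from ratios, so the label K562 was not checked in this way. The median span of a gene was 84.4 kb in the 17 called genes and 64.3 kb in the other 25, against 24.7 kb for all genes. The log of the span and the difference had a Pearson r of -0.11 and a Spearman rho of -0.24 across the 42 genes, which share the same arrays, and of -0.10 and -0.12 across 19734 genes, and the part of gene length in the differences was not tested.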

How the data were processed

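RNA of 6 K562 pTRE-ERG cultures was hybridized to Affymetrix U133 Plus 2.0 arrays. The authors used GeneSpring, and what they deposited is a linear ratio for every probe set on every array, relative to the median of that probe set, which came to 1 (tolerance 1e-05) in 92.8% of all probe sets and below 1 in 3 of the 135 described here. For earlier steps (background, scaling) no method is named in the sources used here. Such ratios hold no brightness, so that neither background nor the relative level of 2 probe sets can be judged. Precision is limited by how few arrays there are. Labels and methods give 8 days of doxycycline, and the legend of the array figure gives a shorter time.

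Control probe sets (62) were left out of the tests. Of the other 54613, 41091 carried 1 gene symbol in the platform annotation, 1801 several and 11721 none, and only those with 1 symbol entered the gene values. All 42 genes were matched by gene ID to RefSeq (GRCh38.p14), used for names, gene spans and promoter windows. CEP170 shares its probe sets with CEP170P1 and fell outside the rule. Log2 ratios, with no floor, were averaged over the probe sets of a gene. The comparison used lmFit and eBayes without trend (limma 3.58.1, R 4.3.3, two-sided), and p-values were adjusted by Benjamini-Hochberg across the whole table of genes or of probe sets. The study states a fold of 2 and p under 0.05 for the arrays and names neither test nor adjustment for them, so calls used unadjusted p. An exact permutation test of 3 arrays against 3 cannot go below p = 0.1. Tables and plots were made with Python 3.11.15, pandas 2.3.3 and matplotlib 3.10.9, and the fit was tested on simulated data. Columns of no mapped sample numbered 0.

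The clone pairs the arrays, because both cultures of a number come from the same clone. Deviations of same-clone arrays from the group means correlated by 0.0362 (CL4), 0.0487 (CL9) and 0.0306 (CL46) over 19775 genes. The spread measured is that between clones. Alternatives were the clone as a block, array centering, quantile normalization, no moderation, a ratio floor of 0.1, omission of probe sets with a median below 1 or of _x_at type, other gene values, other thresholds and omission of each clone.

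The genes and lists were chosen with earlier results of these data known. Described with every array were each gene called, genes with 2 or more probe sets called the same way, the 7 genes named without CEP numbers and the gene with the highest difference, with up to 3 called genes of each further centrosome list. CEP97 was added after its values were seen.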

Additional observations from a re-analysis of the deposited data

Results flagged for a closer look

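CEP170, a protein of the subdistal appendages, was left out of the counts because all its probe sets are annotated to both CEP170 and the pseudogene CEP170P1. Of the 3 probe sets, the _x_at probe set differed by -1.42 (adjusted p = 0.205) and an _s_at probe set by -1.48 (adjusted p = 0.259) between ERG-induced and non-induced arrays, and both were called under-expressed by the thresholds used for the other genes. They were flagged because they lie outside the genes that were compared. For the _x_at probe set the log2 ratios were -0.50, -1.28 and -1.27 in ERG-induced cells of CL4, CL9 and CL46, against 0.47, 0.39 and 0.37 in non-induced cells. For the _s_at probe set they were -0.28, -1.43 and -1.59, against 0.56, 0.34 and 0.24. The groups did not overlap in either. The third probe set differed by -0.79 and was not called, with a difference in CL9 of 1.08 in the other direction. Which of the pair of transcripts gave the signal cannot be told apart.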

How the results depend on the processing

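The 17 under-expressed genes became 11 when the probe set with the highest mean stood for a gene (5.53% of all genes were called). They became 10 at a fold of 3 and 0 at an adjusted p under 0.05. With a clone left out they numbered 7 to 11, while 5.08% to 6.6% of all genes were called. The other settings, the clone as a replicate block among them (17), gave 14 to 18. The 0 over-expressed genes became 1 with the probe set of the highest mean (NIN) and 0 to 1 with a clone left out. The 40 under-expressed probe sets became 0 at an adjusted p under 0.05 and 15 to 33 with a clone left out, and numbered 39 with the replicate block; the 1 over-expressed probe set became 0 with the block, without moderation, without probe sets with a median below 1 and at an adjusted p under 0.05, and 0 to 2 with a clone left out. The 16 other centrosome genes were 9 to 15 with a clone left out, an alternative added after the data were seen. With the probe set of the highest mean CEP43 stood at 0.54 and NIN at 2.85, the opposite direction; the ratios hold no brightness, so that choice does not pick the strongest probe set. For the 22 genes given with every array other than CEP97, 216 alternative values kept direction and side of the threshold, 41 lost the call, 5 gained it and 2 reversed. Outside these, CEP97 was called lower with the block, quantile normalization, the ratio floor and the median over probe sets, and CEP85L with the probe set of the highest mean. Quantile normalization put the median of all genes at 0.11, with 923 lower and 848 higher calls. The block removed the calls on CEP128 and CEP44 and no other of the 17. Signal over background is unknown, so low signals could not be set apart.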
